A study of Mus musculus with 24 samples.

Results

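The fat-cell knockout of the mineralocorticoid receptor was compared with its control in mice fed chow, without either of the study's challenges. The comparison takes in 8 of the 24 RNA-seq libraries of the study: the 4 chow libraries of the knockout (FMRKO), numbered 1, 2, 3 and 5, and the 4 chow libraries of the control, numbered 1, 2, 4 and 5, as the titles number them. All came from inguinal white adipose tissue (iWAT), the subcutaneous fat of the groin, of male mice. Every mouse of both groups carried the floxed receptor gene (MRflox/flox). FMRKO mice also carried AdipoqCre, a Cre recombinase under the promoter of adiponectin, and controls carried no Cre. Carrying the Cre and losing the receptor thus cannot be told apart in this contrast. The adiponectin promoter is active in mature fat cells, so stromal, vascular and immune cells of the pad keep the gene. The labels give no age, and they do not say whether the libraries of a group come from different mice. The p-values thus refer to variation among the sequenced libraries, part of which may be technical. The other 16 libraries, from mice on a high-fat diet or given corticosterone, entered the shared estimate of the spread and served to sort genes by neighbouring tissue.

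The mineralocorticoid receptor, encoded by Nr3c2, is a nuclear receptor that binds aldosterone and, with like affinity, corticosterone. The enzyme 11-beta-hydroxysteroid dehydrogenase type 2 inactivates corticosterone in aldosterone target tissue, while type 1, which is prominent in fat, regenerates it. In adipocytes both the mineralocorticoid and the glucocorticoid receptor are present, and both bind the same palindromic response element in DNA. Inguinal fat also surrounds a lymph node and lies between the body wall muscle and the skin, so a dissected pad can carry RNA of these tissues.

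Total counts ran from 20274665 to 30060098 in the control libraries and from 17925109 to 29010546 in the FMRKO libraries. Between 23459 and 24854 genes had at least 1 count, and mitochondrial genes took 2.72% to 4.27% of the counts. The tissue label held in each library: the 27 genes of the adipocyte identity list were all above 0 counts and together took 4.81% to 8.08% of the counts. No 2 libraries of a group were alike within sampling noise. Levels below are CPM, counts scaled by library size with TMM factors, and a difference is a log2 fold change, FMRKO over control, with its standard error. A gene is called when its adjusted p from edgeR's quasi-likelihood test, over all 19717 genes tested, is under 0.05.

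Lymph node, muscle or epithelial transcripts were high in 3 of the 4 FMRKO libraries, and in no control to the same degree. Liver-type transcripts were high in libraries of both groups: 19 hepatocyte genes summed to 710 and 802 CPM in controls 1 and 4 and to 2823 CPM in FMRKO 5, against 14.9 to 232 CPM in the other 5 libraries (these CPM use library totals without TMM factors). The 28 genes of the lymph node lymphocyte list took 0.22% of all counts in FMRKO 1 and 0.115% in FMRKO 3, against 0.00337% to 0.00634% in the other 6 libraries. The 28 genes of the skeletal muscle list took 3.46% of the counts in FMRKO 5, against 0.0111% to 0.0296% in the other 7. The 16 genes of the epithelium list took 0.0119% in FMRKO 3, against 0.00132% to 0.00402% elsewhere. FMRKO 2 was the only knockout library within the range of the controls or below it for both the lymphocyte and the muscle list. These libraries are therefore given beside each result below that moves with them.

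**Figure D1:**
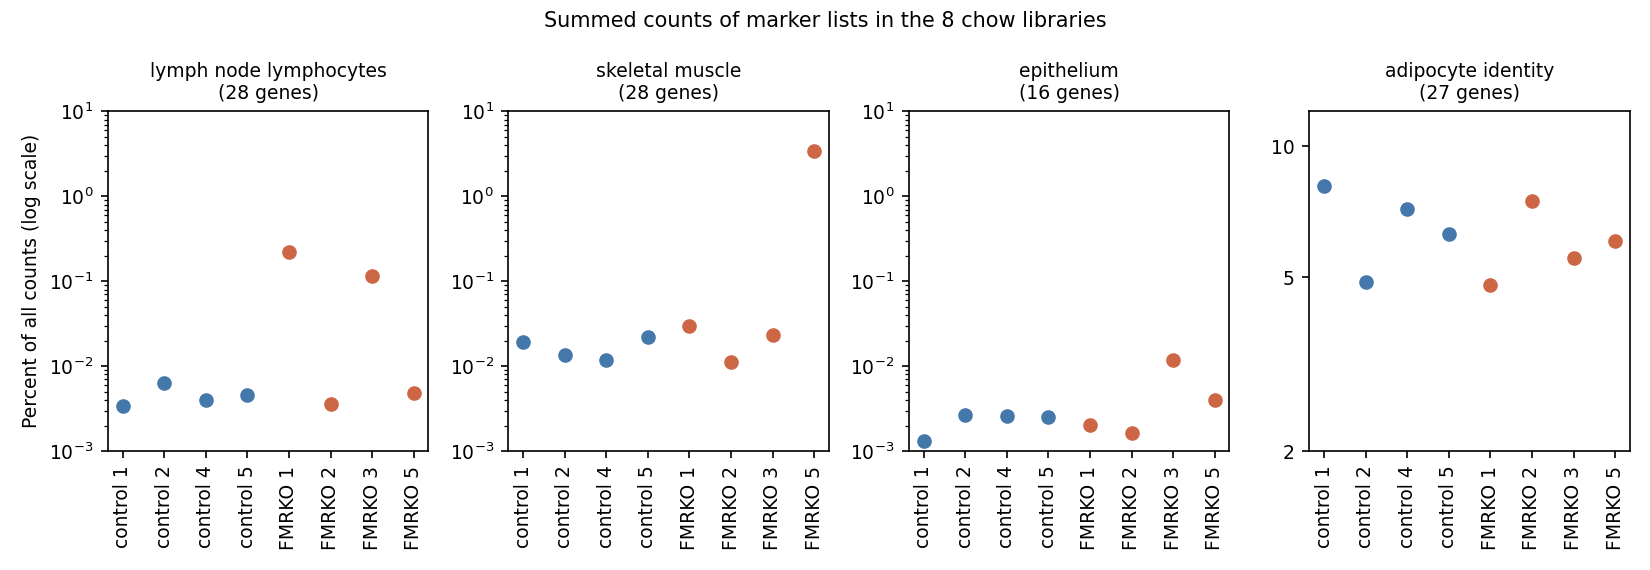
Percent of all counts taken by 4 marker lists (log scale) in each chow library, control in blue and FMRKO in orange. FMRKO 1 (0.22%) and FMRKO 3 (0.115%) stand above the other libraries for lymphocyte genes and FMRKO 5 (3.46%) for muscle genes, while the adipocyte list spans 4.81% to 8.08% with overlapping groups.

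Lymphocyte transcripts of every kind on the list moved with FMRKO 1 and FMRKO 3. Of the T cell genes, Tcf7, a transcription factor of naive T cells, was at 2.73, 2.74, 2.57 and 2.33 CPM in controls 1, 2, 4 and 5 and at 137, 3.23, 134 and 3.39 CPM in FMRKO 1, 2, 3 and 5. Of the B cell genes, Cd79a, a chain of the B cell receptor complex, was at 2.02, 1.54, 3.43 and 1.28 CPM in controls and at 166, 1.99, 53.4 and 1.37 CPM in FMRKO. Cd22, a B cell lectin, was at 1.41, 3.89, 3.40 and 3.08 CPM in controls and at 173, 1.44, 46.6 and 1.42 CPM in FMRKO. Both kinds of cell were thus high in the same 2 libraries, and FMRKO 2 and 5 lay with the controls. Of the genes of homing and node organisation, Ltb, lymphotoxin beta, reached 89.7 and 45.9 CPM in FMRKO 1 and 3 and was 1.38 to 2.13 CPM in the other 6.

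Transcripts of the node's own stroma were high in the same 2 libraries. Glycam1, a sulphated glycoprotein made by high endothelial venules, was at 0.386, 0.0603, 0.474 and 0.088 CPM in controls and at 26.2, 0.584, 21.5 and 0.608 CPM in FMRKO. Clu, clusterin, which follicular dendritic cells express strongly, was at 58.9, 75.0, 66.1 and 64.9 CPM in controls and at 274, 84.9, 196 and 117 CPM in FMRKO. Timd4, a receptor for dying cells on resident macrophages of lymphoid tissue and fat, was at 40.9 and 20.1 CPM in FMRKO 1 and 3 and at 1.67 to 2.99 CPM in the other 6. Plasma cell genes, by contrast, had a median log2 fold change of -0.28 over 6 genes, and their summed share was 0.019% to 0.0297% in FMRKO and 0.0215% to 0.0328% in control libraries.

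The muscle transcripts of FMRKO 5 were those of fast fibres. Myh4, the myosin heavy chain of the fastest fibres, was at 0.0321, 3.98, 0.237 and 12.6 CPM in controls and at 0.14, 0.195, 0 and 5907 CPM in FMRKO 1, 2, 3 and 5. Ttn, the giant spring protein titin, was at 5.75, 20.1, 8.33 and 44.5 CPM in controls and at 80.9, 9.54, 50.2 and 10808 CPM in FMRKO. Acta1, skeletal alpha-actin, was at 60.8, 7.84, 12.7 and 9.69 CPM in controls and at 42.3, 4.25, 38.2 and 3246 CPM in FMRKO. In each case 1 library of the 8 held nearly all of the signal. Neb, nebulin, reached 1774 CPM in FMRKO 5 and was 8.62 to 16.3 CPM in the other 7. Atp2a1, the calcium pump of fast muscle, reached 1213 CPM in FMRKO 5 and was 0.711 to 5.86 CPM in the other 7. Slow-fibre transcripts stayed close to absent: their 6 genes took 0.000151% of the counts in FMRKO 5, and control 2 had 0.000152%. None of the 3 slow myosin genes passed the filter on low counts.

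Epithelial transcripts in FMRKO 3 included milk-protein genes. Ltf, lactoferrin, had 434 counts in FMRKO 3, 8 in FMRKO 1, 2 in control 4 and 0 in the other 5 libraries. Csn3, kappa-casein, had 236 counts in FMRKO 3 and 0 in the other 7. Epcam, an adhesion protein of epithelial cells, had 181 counts in FMRKO 3, 41 in FMRKO 1, 6 in control 1, 2 in control 4 and 0 elsewhere.

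To separate these tissues from fat without using the chow values, each gene was sorted by whether its level rose with the lymph node, muscle or epithelium score across the 16 libraries on a high-fat diet or corticosterone. By that measure 2260 of the 19717 genes (11.5%) tracked the lymph node score, 59 the muscle score and 7 the epithelium score, or 2317 genes in all. Genes too low in those 16 libraries to be sorted were counted as tracking none. Among the genes that make up the scores, all 28 lymphocyte genes, 24 of the 26 tested muscle genes and 4 of the 16 epithelium genes tracked their own, so the last class is thin. On chow, 1286 genes (6.52% of those tested) had an unadjusted p under 0.05 and were higher in FMRKO, and 1067 (5.41%) were lower. The genes that tracked a score gave 685 of the higher ones, which is 53.3%, and 5 of the lower ones. The median log2 fold change was 0.42 for genes that tracked the lymph node score and 3.93 for those that tracked the muscle score. The 17400 genes that tracked none had a median of -0.05, with 601 higher (3.45%) and 1062 lower (6.1%).

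The sorting did not remove all of the signal of single libraries. Of the 601 higher genes that tracked no score, 286 had their highest FMRKO value in library 1, 127 in library 3, 141 in library 5 and 47 in library 2. In 82 of the 141 that peaked in FMRKO 5, that library was at least 2-fold above the next of the 8. With all 8 libraries 2353 genes (11.9%) had an unadjusted p under 0.05. Without FMRKO 1 and 3 there were 967 of 20540 tested, with fewer libraries in the test. Leaving out FMRKO 1 alone gave 1333 of 20022 tested and FMRKO 3 alone 1670 of 20064. Leaving out FMRKO 5 gave 3099 of 20068 and FMRKO 2 gave 3351 of 20146.

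The targeted gene was the first check. Nr3c2, on chromosome 8 at 76899442 to 77245012 of GRCm38, was at 23.7, 17.6, 23.8 and 28.7 CPM in controls and at 11.3, 22.0, 17.7 and 25.8 CPM in FMRKO 1, 2, 3 and 5. The groups overlapped: FMRKO 2, 3 and 5 lay above control 2. The mean was 23.5 ± 4.56 CPM (SD, n = 4) in controls and 19.2 ± 6.23 CPM (SD, n = 4) in FMRKO, a log2 fold change of -0.29 ± 0.20 with an adjusted p of 0.592 from edgeR's quasi-likelihood test. An exact two-sided permutation test on log2 CPM over the 8 libraries gave p = 0.371 for a difference of -0.33, where 4 against 4 can reach 0.029. Without the lymph node libraries FMRKO 1 and 3, the log2 fold change was 0.03. Counts cover the whole gene, the labels do not say which exons are floxed, and cells without the Cre also express the receptor, so this value does not measure recombination in fat cells. In the other conditions the same contrast gave -0.52 ± 0.20 under high-fat feeding and -0.66 ± 0.20 under corticosterone, neither called (adjusted p from edgeR 1 and 0.844). In both of these conditions every FMRKO library lay below every control. Levels were 12.7 to 15.7 against 18.5 to 24.95 CPM on the high-fat diet. With corticosterone they were 7.73 to 12.2 against 14.1 to 18.4 CPM. How many of all genes separated this way in these conditions was not counted, so this is only a description. The difference between chow and the high-fat diet was 0.23 ± 0.28, and that between chow and corticosterone 0.36 ± 0.28, with adjusted p of 0.801 and 0.939 in edgeR's interaction test.

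The partners of the receptor were not called either (0 of 10 genes on the list, against 0.0101% of all genes tested). Nr3c1, the glucocorticoid receptor, was at 207, 158, 168 and 200 CPM in controls and at 152, 223, 160 and 205 CPM in FMRKO, with a log2 fold change of 0.01 ± 0.12. The 3 enzymes all had values below 0, and their groups overlapped. Hsd11b1, which regenerates corticosterone, was at 75.1, 53.9, 99.7 and 90.2 CPM in controls and at 47.3, 70.02, 58.3 and 74.2 CPM in FMRKO, a log2 fold change of -0.35 ± 0.24. Hsd11b2, which inactivates it, was at 2.41 to 4.70 CPM in controls and at 2.04 to 3.24 CPM in FMRKO, -0.53 ± 0.27. H6pd, which supplies NADPH to the type 1 enzyme, was at 419 to 523 CPM in controls and at 351 to 485 CPM in FMRKO, -0.12 ± 0.15. Of the 5 receptor chaperones, Hsp90aa1, Hsp90ab1, Fkbp4 and Ptges3 had log2 fold changes of 0.01 to 0.07, and Fkbp5 had -0.23 ± 0.31. Hsp90aa1 varied more between libraries than between groups, at 82.5 to 172 CPM in controls and 95.6 to 195 CPM in FMRKO.

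On chow 2 genes were called, 0.0101% of those tested, and both were higher in FMRKO. Zfp949, a zinc finger protein gene on chromosome 9 (plus strand, 88548020 to 88571061), was at 9.99, 10.1, 9.55 and 9.25 CPM in controls and at 25.7, 25.1, 29.9 and 26.1 CPM in FMRKO 1, 2, 3 and 5. All 4 FMRKO libraries lay above all controls, by a gap wider than the spread of either group. The means were 9.73 ± 0.407 and 26.7 ± 2.20 CPM (SD, n = 4 each), a log2 fold change of 1.46 ± 0.08 with an adjusted p of 1.88e-09 from edgeR's quasi-likelihood test. Eif4a2, on chromosome 16 (plus strand, 23107444 to 23114136), encodes 1 of the RNA helicases that unwind the 5′ ends of mRNAs for translation. It was at 201, 163, 198 and 176 CPM in controls and at 285, 300, 275 and 268 CPM in FMRKO, again with no overlap. The means were 184 ± 18.2 and 282 ± 13.8 CPM (SD, n = 4 each), a log2 fold change of 0.61 ± 0.09 with an adjusted p of 0.0058 in edgeR. Neither gene tracked a neighbouring-tissue score. For both, loss of the receptor and presence of the Cre cannot be told apart. Zfp949 passed the threshold in all 17 alternative fits, at 1.36 to 1.51. Eif4a2 had the same direction in all 17, at 0.58 to 0.70, and passed in 13: its adjusted p in edgeR was 0.414 with the chow libraries alone, 0.075 without FMRKO 1 and 3, 0.712 without FMRKO 1, 3 and 5, and 0.269 with the replicate block.

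**Figure D2:**
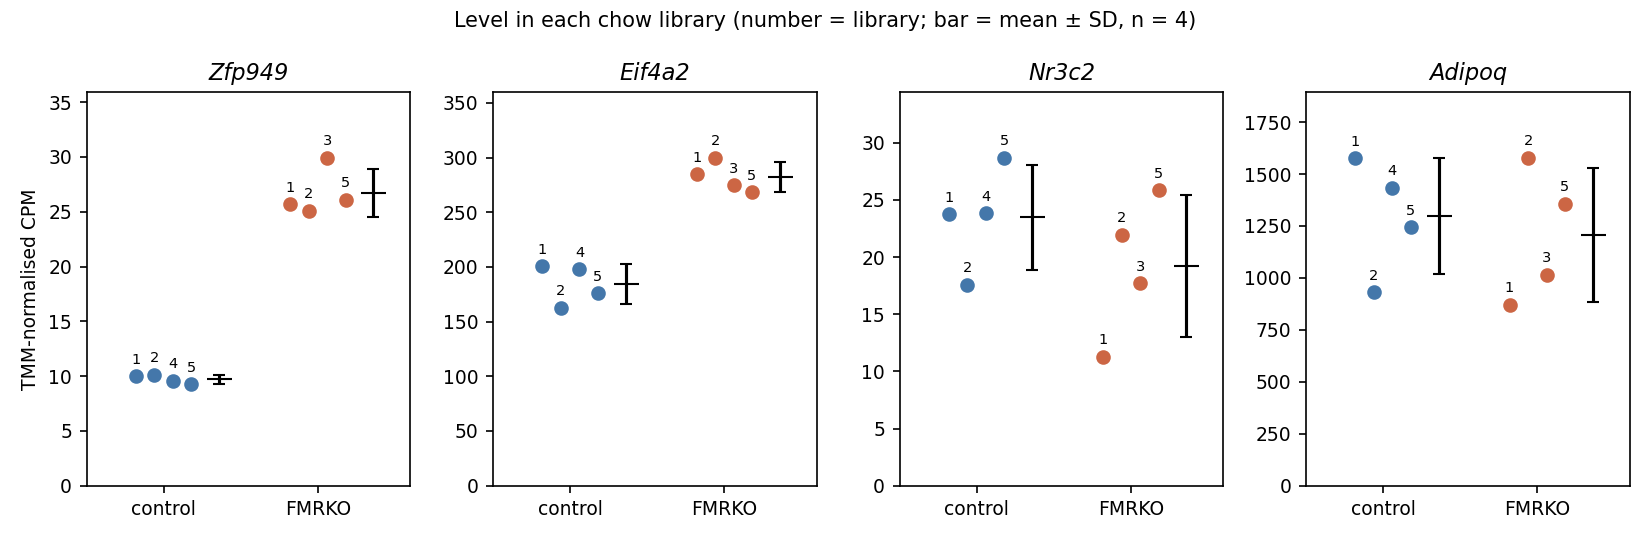
Level (TMM-normalised CPM) of Zfp949, Eif4a2, Nr3c2 and Adipoq in each chow library, marked by its number, with mean and SD of 4. The groups are apart for Zfp949 (9.25 to 10.1 against 25.1 to 29.9) and Eif4a2 (163 to 201 against 268 to 300) and overlap for Nr3c2 and Adipoq.

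The DNA before the start of both called genes is shown so that it can be read against the binding element that the receptors share. Each sequence is the 250 bases before the RefSeq start site on GRCm38.p6, 5′ to 3′ on the plus strand, and the promoter of Sgk1, the kinase gene known as a direct target of both receptors, is shown beside them. The full palindrome GAACANNNTGTTC, which reads the same on both strands, was searched in 300-base windows that also hold 50 bases after the start, and a match is in capitals.
Zfp949 (chr9:88547770-88548019): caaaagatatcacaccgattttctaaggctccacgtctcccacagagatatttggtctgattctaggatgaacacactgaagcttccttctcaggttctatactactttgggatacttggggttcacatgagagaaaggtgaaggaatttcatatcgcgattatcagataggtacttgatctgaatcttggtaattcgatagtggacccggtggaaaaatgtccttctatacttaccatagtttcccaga
Eif4a2 (chr16:23107218-23107467): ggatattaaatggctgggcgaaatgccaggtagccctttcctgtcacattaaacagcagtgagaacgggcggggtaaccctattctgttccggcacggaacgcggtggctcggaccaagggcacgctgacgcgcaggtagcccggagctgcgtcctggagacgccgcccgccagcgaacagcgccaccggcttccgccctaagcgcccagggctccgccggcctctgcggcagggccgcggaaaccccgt
Sgk1 (chr10:21993640-21993889): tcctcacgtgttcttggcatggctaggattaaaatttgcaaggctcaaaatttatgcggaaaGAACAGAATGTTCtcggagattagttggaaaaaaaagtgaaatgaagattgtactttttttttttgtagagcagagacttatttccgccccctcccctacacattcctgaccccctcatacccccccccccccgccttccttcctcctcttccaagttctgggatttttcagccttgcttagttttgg
The palindrome was found in 1 of 6 Sgk1 windows, its last base 176 bases before the start, and in neither the Zfp949 nor the Eif4a2 window. Of all 32851 windows, 19 (0.0578%) held it, and of the 12 genes with a window among the 16 genes compared below, 0 did. Sgk1 itself, on chow, was at 68.8, 87.8, 107 and 61.9 CPM in controls and at 46.6, 72.5, 52.4 and 90.3 CPM in FMRKO, with a log2 fold change of -0.31 ± 0.24 and overlapping groups.

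Eif4a2 lies next to Adipoq, the gene whose promoter drives the Cre, and its midpoint is at -35.7 kb from the Adipoq start. For that reason all tested genes within 500 kb of Adipoq, itself included, were described: there were 20, of which 1 was called. Of the 20, 4 had all FMRKO libraries above all controls, against 1.59% of all genes tested, and 0 had all below, against 1.61%. Besides Eif4a2 these were Rfc4, B630019A10Rik and Gm15746. Rfc4, a subunit of the clamp loader of DNA replication, was at 1.96, 1.54, 1.18 and 1.85 CPM in controls and at 3.07, 2.14, 3.36 and 2.08 CPM in FMRKO, a log2 fold change of 0.71 ± 0.23. Its last bases overlap those of Eif4a2 on the other strand, and since strand use in the counting is not given, reads there cannot be told apart. B630019A10Rik, on the other side of Adipoq, was at 0.161, 0.241, 0.237 and 0.396 CPM in controls and at 1.73, 1.48, 1.33 and 0.962 CPM in FMRKO, 2.41 ± 0.61. Gm15746, which lies within B630019A10Rik on the opposite strand, was at 0.321, 0.241, 0.553 and 0.792 CPM in controls and at 1.395, 1.99, 1.52 and 0.962 CPM in FMRKO, 1.63 ± 0.45. Reads of this pair cannot be told apart by strand either, so they may not be 2 separate signals. All 3 genes had an adjusted p of 0.285 in edgeR and were not called, while DESeq2 called B630019A10Rik, at 2.46 with an adjusted p of 0.0318. B630019A10Rik and Gm15746 reached at most 1.73 and 1.99 CPM in any chow library. Their fold changes and their lack of overlap thus rest on low counts.

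Adipoq itself was at 1575, 931, 1435 and 1244 CPM in controls and at 872, 1579, 1014 and 1356 CPM in FMRKO, a log2 fold change of -0.10 ± 0.21 with an adjusted p of 0.877 in edgeR. Its 2 lowest FMRKO libraries were the lymph node libraries 1 and 3, and without them the value was 0.18. Of the 15 tested genes within 500 kb of Zfp949, itself included, 1 was called (0.0101% of all genes), and that was Zfp949. It was also 1 of the 2 with all FMRKO libraries above all controls (1.59% of all genes), and 2 had all below (1.61%). Gm26461, a small RNA gene inside Zfp949 on the same strand, was at 631, 712, 703 and 669 CPM in controls and at 297, 678, 566 and 669 CPM in FMRKO, -0.30 ± 0.21. None of the 7 tested genes within 500 kb of Nr3c2 had groups that did not overlap (1.59% of all genes higher and 1.61% lower).

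**Figure D3:**
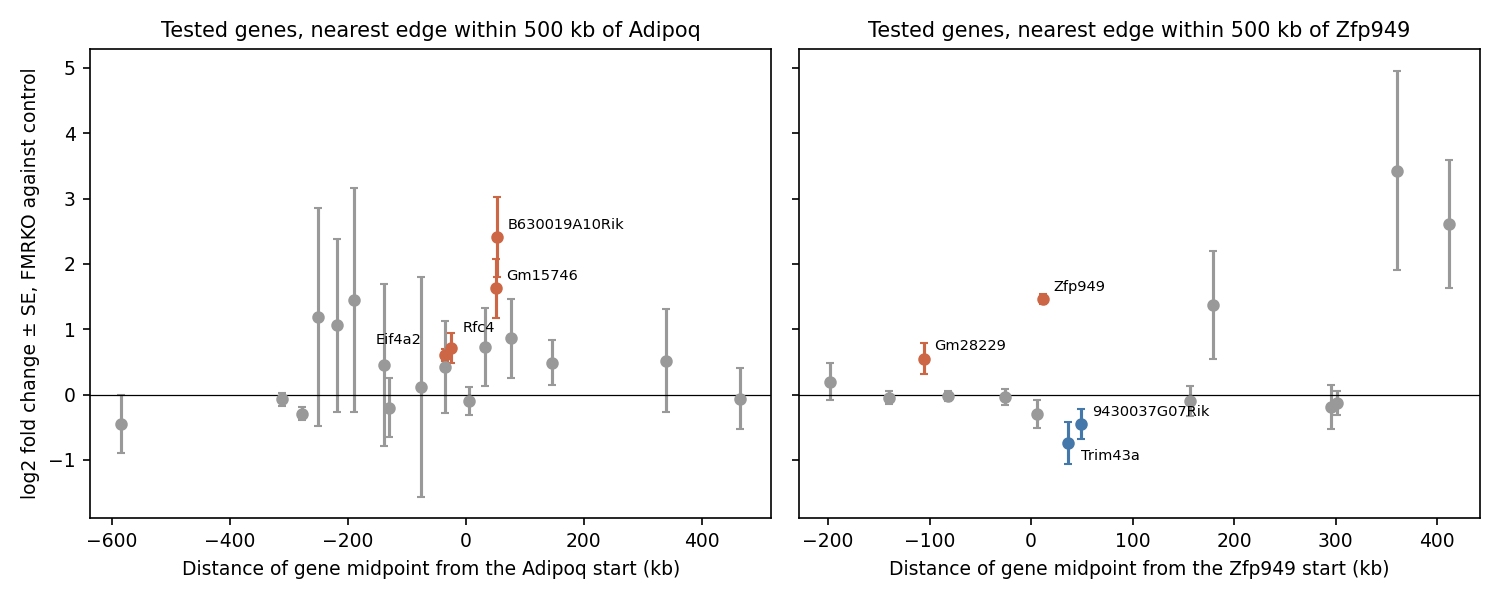
Log2 fold change with its SE for each tested gene near Adipoq (20 genes) and near Zfp949 (15 genes) against the distance of the gene's midpoint in kb; orange and blue points have all FMRKO libraries above or below all controls. Near Adipoq 4 genes are orange and 0 blue, and near Zfp949 2 are orange and 2 blue.

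Of the 15 genes of the translation initiation list, Eif4a2 was the 1 called, against 0.0101% of all genes. The list's median log2 fold change was -0.04, against -0.02 over all genes. Pdcd4, an inhibitor that binds the eIF4A helicases, was at 42.4, 32.7, 39.8 and 39.8 CPM in controls and at 65.8, 45.5, 62.6 and 42.4 CPM in FMRKO, 0.49 ± 0.18 with an adjusted p of 0.311 in edgeR. It tracked the lymph node score, and its 2 highest libraries were FMRKO 1 and 3. Eif4a1, the closest relative of Eif4a2, was at 180, 200.5, 155 and 147 CPM in controls and at 157, 164, 140 and 129 CPM in FMRKO, -0.21 ± 0.10. Eif4h, which stimulates the helicases, was at 172 to 203 CPM in controls and at 163 to 191 CPM in FMRKO, -0.18 ± 0.08. Both had overlapping groups, an unadjusted p under 0.05 and adjusted p of 0.415 and 0.404 in edgeR. Paip1, which binds the poly(A)-binding protein, was at 30.0 to 32.6 CPM in controls and at 25.7 to 29.2 CPM in FMRKO without overlap, -0.18 ± 0.10.

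Beyond the called genes, the 16 genes with the smallest p among those that tracked no score and averaged at least 5 CPM, 8 in each direction, were described. They were picked by p in these same libraries, so a place in the set does not make a gene a regular fat-pad difference. The groups overlapped for Rab11fip4 and Phtf2, and the size of the Tchh difference came mostly from a single control library. Apart from Zfp949 and Eif4a2, none of the 16 was called by edgeR, with adjusted p of 0.217 to 0.285. DESeq2, run as an alternative on the same counts, called 71 genes (0.36%), 47 higher and 24 lower. Of its 47 higher genes, 24 tracked a neighbouring-tissue score, and of its 24 lower genes 0 did. It called 8 of the 8 higher genes described here and 7 of the 8 lower ones, and gave Tchh no adjusted p.

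The other 6 genes of the higher set follow. Arap2, which switches off Arf GTPases at the membrane, was at 29.8, 19.1, 24.1 and 27.1 CPM in controls and at 54.7, 35.0, 40.7 and 29.9 CPM in FMRKO, 0.68 ± 0.15. FMRKO 1 was highest, and FMRKO 5 lay only just above control 1. Ube2d2a, a ubiquitin-conjugating enzyme, had the narrowest groups, at 57.0, 58.9, 58.7 and 56.0 CPM in controls and at 65.9, 71.8, 70.3 and 63.9 CPM in FMRKO, 0.24 ± 0.05. Rpl23a, a protein of the large ribosomal subunit, was at 30.4 to 33.7 CPM in controls and at 47.0, 36.7, 44.1 and 36.9 CPM in FMRKO, 0.37 ± 0.08. It was higher in FMRKO 1 and 3 than in FMRKO 2 and 5. Ribosomal protein genes have many near-identical processed copies among which reads can be split. Rpl23a did not track the lymph node score, and its log2 fold change ran from 0.20 to 0.42 over the alternative fits. The cause of the difference between these FMRKO libraries was not tested. Rab11fip4, an adaptor of recycling endosomes, was at 13.8 and 14.2 CPM in FMRKO 1 and 3, 4.48 and 4.31 CPM in FMRKO 2 and 5, and 1.98 to 5.91 CPM in controls, so its difference lay in the lymph node libraries. Phtf2 was at 10.0 to 13.8 CPM in controls and at 18.9, 12.1, 14.6 and 22.1 CPM in FMRKO, 0.60 ± 0.15, with FMRKO 2 below control 5. Bclaf3 was at 8.08 to 9.25 CPM in controls and at 11.9, 9.85, 11.1 and 11.4 CPM in FMRKO, 0.35 ± 0.09.

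The 8 lower genes had every FMRKO library below every control, as 1.61% of all genes did; they were picked for a small p, so that count is only a description. Rufy3, an adaptor of endosomes and lysosomes, was at 12.7, 16.7, 15.9 and 18.1 CPM in controls and at 9.85, 11.3, 9.38 and 11.8 CPM in FMRKO, -0.59 ± 0.11. Tbx18, a T-box transcription factor of mural and other mesenchymal cells, was at 13.2, 13.6, 9.99 and 14.1 CPM in controls and at 3.99, 6.97, 6.27 and 8.41 CPM in FMRKO, -0.99 ± 0.19. In FMRKO 2, the FMRKO library lowest in all 3 neighbouring-tissue lists, both genes lay within the range of the other FMRKO libraries. The next pair encodes proteins of collagen maturation. Crtap, a subunit of the complex that hydroxylates collagen prolines, was at 63.1, 72.8, 66.5 and 66.4 CPM in controls and at 43.6, 56.2, 48.5 and 45.6 CPM in FMRKO, -0.47 ± 0.10. Plod2, which hydroxylates collagen lysines for cross-linking, was at 12.01, 19.4, 14.7 and 14.0 CPM in controls and at 7.34, 10.9, 7.40 and 10.4 CPM in FMRKO, -0.74 ± 0.17. Tbx18, Plod2 and Crtap lie on chromosome 9, as does Zfp949, but outside the window described around it. Tbx18 ends at 87731260, Plod2 starts at 92542223 and Crtap at 114375134. On chromosome 9, 13.8% of tested genes had an unadjusted p from edgeR under 0.05, against 11.9% of all genes. A link between these genes and the position of Zfp949 was not tested.

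Sdk1, a cell adhesion protein, was at 113 to 152 CPM in controls and at 96.3 to 109 CPM in FMRKO, -0.38 ± 0.08. Stub1, a ubiquitin ligase that works with heat shock chaperones, was at 23.7 to 28.1 CPM in controls and at 18.6 to 20.4 CPM in FMRKO, -0.40 ± 0.09. Inf2, a formin that assembles actin, was at 102 to 116 CPM in controls and at 79.4 to 96.8 CPM in FMRKO, -0.34 ± 0.08. Tchh, the hair follicle protein trichohyalin, was at 36.9, 1.15, 1.22 and 1.41 CPM in controls and at 0.391, 0.467, 0.226 and 0.658 CPM in FMRKO. Its log2 fold change was -4.56 ± 0.98 (SE) with adjusted p = 0.285 by edgeR's quasi-likelihood test, and -1.54 ± 0.53 without control 1, so most of its size came from that library, which alone also took its mean past 5 CPM. In bulk tissue, fewer cells of a type and less RNA per cell cannot be told apart for these genes or for the lists below.

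**Figure D4:**
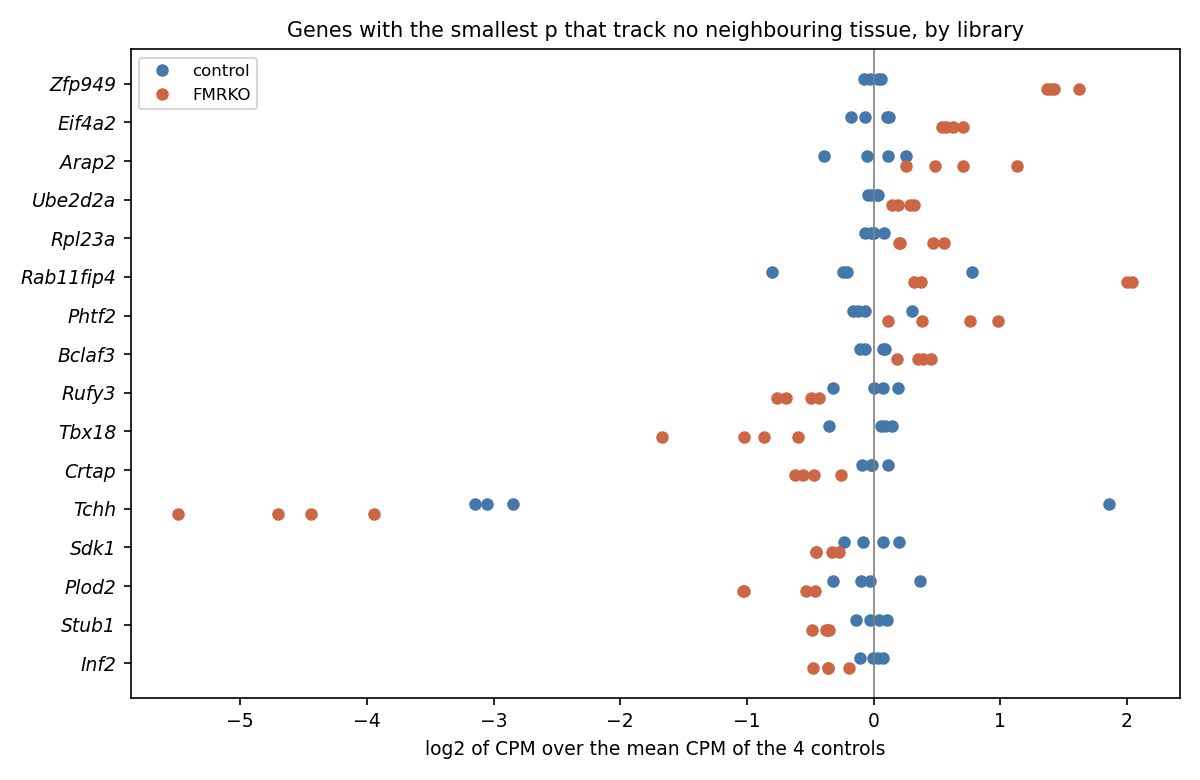
Log2 of the CPM over the mean CPM of the 4 controls in each chow library for the 16 genes with the smallest p, 8 higher and 8 lower, that tracked no neighbouring tissue; control points in blue, FMRKO in orange. Zfp949 and Eif4a2 are apart with narrow groups, Rab11fip4 splits into a pair of FMRKO libraries far to the right and a pair within the controls, and 1 control point of Tchh lies far from the other 3.

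The genes of the fat cell itself were not called. Only 0.0101% of all genes were, so 0 calls in this list or those below says little about the list. Of the 27 adipocyte identity genes 0 were called, 26 had a log2 fold change below 0 and the median was -0.16, against -0.02 over all genes. The direction followed the libraries: the list took 4.81% and 5.53% of the counts in FMRKO 1 and 3 and 7.47% and 6.05% in FMRKO 2 and 5, against 8.08%, 4.89%, 7.17% and 6.29% in controls 1, 2, 4 and 5. Without FMRKO 1 and 3 the median was 0.08, without FMRKO 1, 3 and 5 it was 0.22, and with both tissue scores as covariates it was 0.19; it was -0.34 without FMRKO 2, -0.32 without control 2 and -0.01 without control 1. Lep, leptin, was at 164, 85.2, 227 and 216 CPM in controls and at 97.5, 131, 186 and 176 CPM in FMRKO, -0.23 ± 0.27. Pparg, the master regulator of adipogenesis, was at 260, 123, 212 and 178 CPM in controls and at 130, 276, 179 and 178 CPM in FMRKO, -0.02 ± 0.24. Cebpb, a transcription factor of early adipogenesis, was at 64.9, 91.3, 92.2 and 54.3 CPM in controls and at 23.3, 46.5, 40.0 and 76.3 CPM in FMRKO, -0.71 ± 0.28 with an adjusted p of 0.328 in edgeR. It was the only 1 of the 27 with an unadjusted p from edgeR under 0.05 (11.9% of all genes), and FMRKO 5 lay within the controls. Mgll and Cd36, a lipase and a fatty acid transporter, had -0.26 ± 0.21 and -0.22 ± 0.19, and Klb, the co-receptor of FGF21, -0.50 ± 0.27.

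Lipid synthesis genes were not called either. Of 16 genes of de novo lipogenesis 0 were called (0.0101% of all genes), 14 were below 0 and the median was -0.23. It was -0.19 without FMRKO 1 and 3, -0.28 without FMRKO 5, -0.14 without all 3, -0.40 without control 2, -0.06 without control 1, and 0.06 with the tissue scores as covariates. Acly, which makes cytosolic acetyl-CoA, was at 496, 217, 390 and 397 CPM in controls and at 322, 281, 288 and 209 CPM in FMRKO, -0.45 ± 0.24. Me1, which supplies NADPH, was at 366, 176, 312 and 240 CPM in controls and at 154, 247, 177 and 221 CPM in FMRKO, -0.45 ± 0.25. Control 2 was low for both, so the groups overlapped. The median was -0.05 for 20 genes of cholesterol synthesis and -0.06 for 21 genes of oxidative phosphorylation. For 18 genes of fatty acid oxidation and the TCA cycle it was -0.07. In each of these lists 0 were called (0.0101% of all genes).

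Thermogenic genes were low in both groups. Ucp1, the uncoupling protein of brown and beige fat, was at 2.89, 0.121, 0.237 and 0 CPM in controls and at 0.112, 0.467, 1.16 and 0.81 CPM in FMRKO. Control 1 alone held 90 counts, and the other 7 libraries held 0 to 36. Of the 15 genes on the list 2 had an unadjusted p from edgeR under 0.05, both higher (6.52% of all genes). Both are shared with muscle. Ckmt2, a mitochondrial creatine kinase, was at 26.7 CPM in FMRKO 5 and 0.112 to 0.553 CPM in the other 7, and Cox7a1, a muscle form of a cytochrome oxidase subunit, at 15.2 CPM in FMRKO 5 and 1.28 to 2.78 CPM in the other 7. The list's median was 0.06, and -0.22 without FMRKO 5 but 0.72 without control 1, so its direction depended on single libraries.

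Steroid-responsive genes gave no call. Of 22 glucocorticoid-responsive genes 0 were called (0.0101% of all genes), and 19 were below 0. The median was -0.24, or -0.02 with the tissue scores as covariates. Per1, a clock gene induced by steroids, was at 169, 189, 370 and 165 CPM in controls and at 107, 120, 151 and 205 CPM in FMRKO, -0.62 ± 0.29 with an adjusted p of 0.407 in edgeR, and -0.26 without control 4. Fkbp5, a chaperone induced by steroids, was at 67.1, 92.8, 205 and 102 CPM in controls and at 88.6, 121, 127 and 60.0 CPM in FMRKO. Control 4 was the highest of the 4 controls for both genes, for Tsc22d3 (139 CPM against 58.4 to 73.9) and for Zbtb16 (340 CPM against 116 to 262). Tsc22d3, the anti-inflammatory factor GILZ, had a log2 fold change of -0.02 ± 0.25, and Zbtb16, a zinc finger regulator of adipogenesis, -0.04 ± 0.34. Without control 4 the median of the list was -0.06, while it was -0.34 without control 5 and -0.42 without FMRKO 2.

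Of the 13 tested genes linked to the mineralocorticoid receptor, 0 were called (0.0101% of all genes) and the median was -0.10. Atp1b1, a subunit of the sodium pump, was at 1.70 to 3.43 CPM in controls and at 11.8, 2.73, 14.9 and 4.61 CPM in FMRKO, 1.66 ± 0.57, and it tracked the lymph node score. Lcn2, a secreted protein induced by aldosterone, was at 0.578, 7.66, 0.789 and 1.63 CPM in controls and at 1.395, 1.48, 4.88 and 2.28 CPM in FMRKO, -0.10 ± 0.64. Ace, the angiotensin-converting enzyme, belongs to the separate renin-angiotensin list. It was at 148, 255, 365 and 366 CPM in controls and at 145, 209, 168 and 268 CPM in FMRKO, -0.52 ± 0.23 with an adjusted p of 0.375 in edgeR. Control 1 lay with the FMRKO libraries. Arntl, a core gene of the separate circadian clock list, was at 5.59 to 8.90 CPM in controls and at 15.98, 9.85, 11.9 and 4.46 CPM in FMRKO, 0.66 ± 0.27. FMRKO 5 was the lowest library for it.

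Genes of vessels, matrix and macrophages had medians below 0, and edgeR called none with all 8 libraries (0.0101% of all genes). All 13 endothelial genes were below 0, 7 of them at an unadjusted p under 0.05 (5.41% of all genes) and 4 with all FMRKO libraries below all controls (1.61% of all genes). Vwf, von Willebrand factor, was at 133, 133, 118 and 169 CPM in controls and at 64.9, 108, 68.7 and 112 CPM in FMRKO, -0.64 ± 0.19. Esam, a junction protein, was at 61.6, 53.9, 57.4 and 55.4 CPM in controls and at 32.3, 46.3, 37.8 and 53.8 CPM in FMRKO, -0.43 ± 0.16. Tie1, a receptor kinase of endothelium, was at 66.5 to 79.5 CPM in controls and at 45.0, 65.8, 49.8 and 57.0 CPM in FMRKO, -0.43 ± 0.16. Plvap, which forms the diaphragms of fenestrae, was at 96.6 to 122.5 CPM in controls and at 93.5, 74.1, 72.9 and 115 CPM in FMRKO. Its log2 fold change was -0.31 ± 0.12, and FMRKO 5 lay within the controls. The lowest libraries were the lymph node libraries 1 and 3 for Vwf, Esam and Tie1, but FMRKO 3 and 2 for Plvap. FMRKO 2 lay below all 4 controls for 6 of the 13 genes, against 15.2% of all genes tested. The median of the list was -0.30. It was -0.15 without FMRKO 1 and 3, -0.12 with the tissue scores as covariates and -0.41 without FMRKO 5.

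Matrix genes were all below 0 as well, 22 of 22. Of these, 10 had an unadjusted p from edgeR under 0.05, where 5.41% of all genes were lower. In 1 the groups did not overlap, and 1.61% of all genes were lower without overlap. Col1a1, a chain of type I collagen, was at 1539, 7725, 2882 and 5095 CPM in controls and at 1569, 2997, 1666 and 2159 CPM in FMRKO, -1.04 ± 0.39 with an adjusted p of 0.312 in edgeR. Postn, periostin, was at 142, 400.4, 422 and 360.5 CPM in controls and at 90.01, 282, 105 and 168 CPM in FMRKO, -1.04 ± 0.35. Timp1, an inhibitor of matrix proteases, was at 18.4 CPM in control 2 and at 0.938 to 4.13 CPM in the other 7. Controls 2 and 5 were high for Col1a1, and control 1 lay below all FMRKO libraries for it. The median of the list was -0.50, and -0.29 without control 2, -0.28 without FMRKO 1 and 3, and -0.17 without FMRKO 1, 3 and 5. It was -0.37 with the tissue scores as covariates, -0.53 without FMRKO 5, -0.62 without control 1 and -0.66 without FMRKO 2.

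Macrophage genes followed the same controls. Of 23 genes 19 were below 0. At an unadjusted p from edgeR under 0.05, 8 were lower (5.41% of all genes) and 1 higher (6.52% of all genes). In 0 the groups did not overlap, against 1.61% of all genes lower and 1.59% higher. Trem2, a lipid receptor of macrophages in obese fat, was at 0.803, 64.0, 5.53 and 22.2 CPM in controls and at 1.87, 6.27, 1.88 and 3.04 CPM in FMRKO, -2.83 ± 0.78 with an adjusted p of 0.285 in edgeR. DESeq2 called it, at -2.81 with an adjusted p of 0.0497, as did edgeR without control 1, at -3.24 with an adjusted p of 0.0482, while without control 2 it was -1.52. Gpnmb, of the same cells, was at 28.4, 543, 51.1 and 198 CPM in controls and at 23.2, 80.0, 44.4 and 54.5 CPM in FMRKO, -2.02 ± 0.61. Spp1, osteopontin, was at 149 CPM in control 2, 8.50 CPM in control 5 and 1.03 to 4.40 CPM in the other 6. DESeq2 called it too, at -4.08 with an adjusted p of 0.041, and in edgeR its log2 fold change was -4.10 with all 8 libraries and -0.71 without control 2. Adgre1, the pan-macrophage receptor F4/80, was at 23.6, 103, 39.9 and 70.1 CPM in controls and at 25.4, 41.8, 23.5 and 34.0 CPM in FMRKO, -0.93 ± 0.32. Each was highest in control 2 and next in control 5. The median of the list was -0.42, and -0.07 without control 2. It was -0.64 without control 1, -0.48 with the tissue scores as covariates, -0.37 without FMRKO 1 and 3, and -0.28 without FMRKO 1, 3 and 5. The 1 higher gene was Timd4, which was high in the lymph node libraries, as was the chemokine gene Ccl5 (85.3 and 108 CPM in FMRKO 1 and 3, 2.53 to 6.13 CPM elsewhere).

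Preadipocyte and stromal fibroblast genes had a median of -0.21 over 17 genes, which was -0.01 without FMRKO 1 and 3, -0.33 without FMRKO 5, -0.12 without all 3 and -0.17 with the tissue scores as covariates. Cd55, a complement regulator on fibroblast progenitors, was at 51.8 to 70.4 CPM in controls and at 134, 75.3, 84.7 and 70.5 CPM in FMRKO, 0.63 ± 0.28, and it tracked the lymph node score. Cd34, a surface protein of progenitors and endothelium, was at 64.7, 120.5, 119 and 170.4 CPM in controls and at 59.0, 86.4, 73.0 and 120.0 CPM in FMRKO, -0.49 ± 0.25. Of 12 genes of insulin signalling 0 were called (0.0101% of all genes). Akt1, the kinase downstream of the insulin receptor, was at 92.8, 141, 111 and 115 CPM in controls and at 93.2, 92.7, 83.7 and 95.1 CPM in FMRKO, -0.34 ± 0.09 with an adjusted p of 0.285 in edgeR, and it was called without control 1, at -0.43 with an adjusted p of 0.0482.

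**Figure D5:**
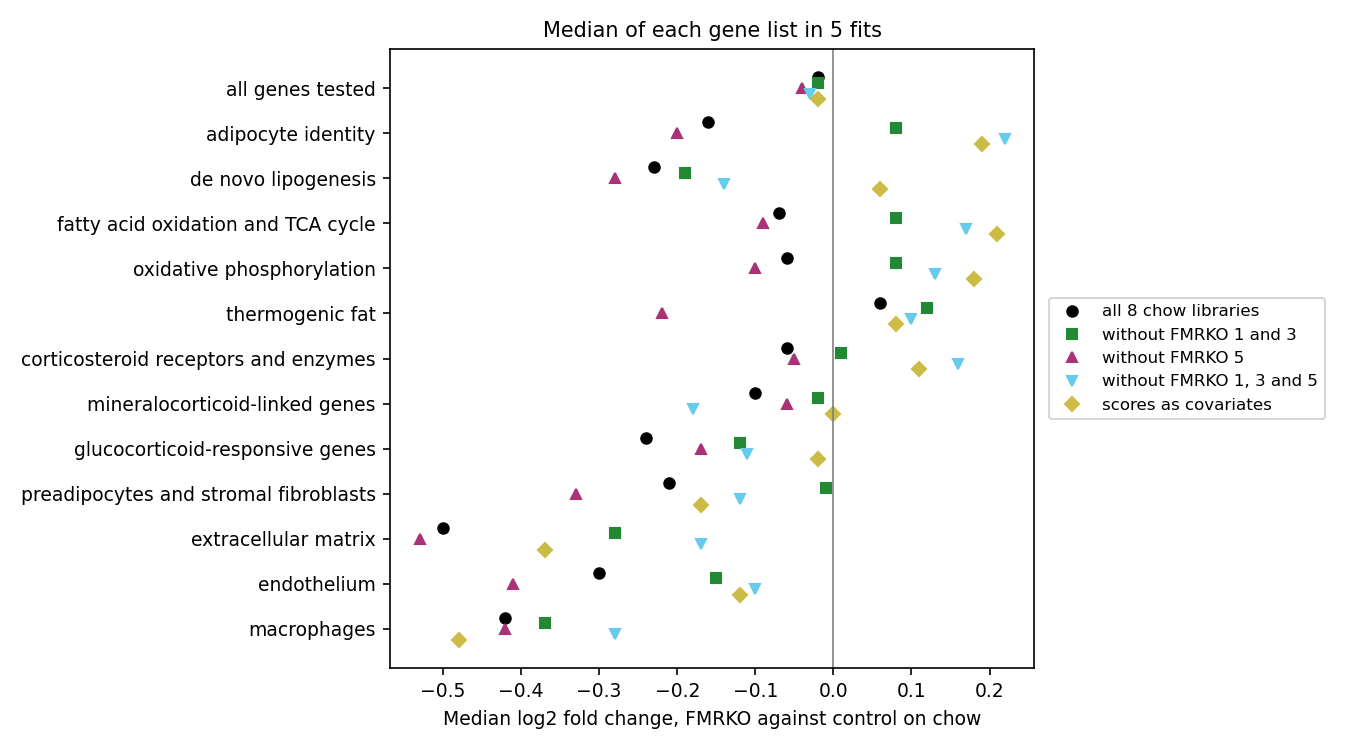
Median log2 fold change of each gene list, FMRKO against control on chow, in 5 fits: all 8 libraries, without FMRKO 1 and 3, without FMRKO 5, without FMRKO 1, 3 and 5, and with the lymph node and muscle scores as covariates. Over these fits the adipocyte list runs from -0.20 to 0.22 and the matrix list from -0.53 to -0.17. The median of all genes stays between -0.04 and -0.02.

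The chow effect was set beside the same contrast in the other conditions, each with its own controls, where 2 genes (0.0101%) were called under high-fat feeding and 1 (0.00507%) under corticosterone. Zfp949 was higher in FMRKO by 1.20 ± 0.08 under high-fat feeding and by 1.00 ± 0.08 under corticosterone (adjusted p 7.46e-08 and 2.11e-06 in edgeR), where all FMRKO libraries were again above all controls. Its level in FMRKO ran from 17.3 to 18.5 CPM on the high-fat diet and from 14.7 to 18.1 CPM with corticosterone, against 25.1 to 29.9 CPM on chow. Eif4a2 was higher by 0.65 ± 0.09 and 0.52 ± 0.09 (adjusted p 0.00238 and 0.0541 in edgeR). The interaction test called neither gene: for Zfp949 the difference was 0.25 ± 0.12 from the high-fat diet and 0.46 ± 0.12 from corticosterone (adjusted p 0.498 and 0.45 in edgeR), and for Eif4a2 -0.04 ± 0.12 and 0.09 ± 0.12.

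Across all genes, 0 effects on chow differed from those on the high-fat diet and 0 from those with corticosterone by edgeR's interaction test (0.0% each), with 1939 (9.83%) and 1171 (5.94%) at an unadjusted p under 0.05. DESeq2 called 6 (0.0304%) and 4 (0.0203%), with 10.3% and 6.24% of genes at an unadjusted p under 0.05. The 6 included 3 of the genes above: Bclaf3 with a difference of 0.74, Ube2d2a with 0.36 and Phtf2 with 0.97, with adjusted p from DESeq2 of 0.000388, 0.00387 and 0.0417. In edgeR the same differences were 0.70 ± 0.12, 0.32 ± 0.08 and 0.93 ± 0.21, with adjusted p of 0.147, 0.481 and 0.481. Of the genes lower on chow, Rufy3 had log2 fold changes of -0.13 ± 0.11 and 0.12 ± 0.11 in the other conditions, and Crtap 0.11 ± 0.10 and -0.01 ± 0.10. Tbx18 was at -0.45 ± 0.19 and -0.32 ± 0.19 there, and Plod2 at -0.41 ± 0.17 and -0.44 ± 0.17. Vwf, lower on chow, had 0.07 ± 0.19 under high-fat feeding and 0.00 ± 0.19 under corticosterone, and Col1a1 had 0.36 ± 0.39 and 0.16 ± 0.39. None of these differences between conditions passed edgeR's interaction test (adjusted p 0.418 to 0.939).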

How the data were processed

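The deposited files give, per library and gene, read counts that the authors made with STAR 2.5.1a and featureCounts 1.4.6p-5 (Subread) on the GRCm38 build, as the submitters' processing notes list them. For the gene models, strandedness and multi-mapped reads nothing is stated in what was used here. The authors' deposited CPM and RPKM columns were checked for their unit and not used in a test. The RNA (TRIzol, column clean-up) was depleted of ribosomal RNA, per the labels' protocols. Tests used edgeR 4.0.16 under R 4.3.3: filterByExpr with a minimum count of 10 (19717 of 41388 genes kept), TMM scaling, and the quasi-likelihood test fitted to the 24 libraries, 1 mean for each group (residual degrees of freedom 18, common dispersion 0.113). P-values are two-sided with Benjamini-Hochberg adjustment, threshold 0.05. For genes with many counts the spread between libraries, more than counting error, limits the precision. For genes with few counts, such as Ltf, Csn3 and Ucp1, counting error limits it too. DESeq2 1.42.0 was an alternative, as were RLE scaling, no filter, chow libraries alone, leaving out libraries, marker scores as covariates, and a replicate block. A gene tracked a marker score where its coefficient in the 16 other libraries was above 0 at an adjusted p under 0.05. Named genes are the receptor list and a fixed set of fat and steroid genes, called genes, the 8 smallest p in each direction among untracked genes of at least 5 CPM, the most abundant or smallest-p members of each list, and genes within 500 kb of Adipoq, Nr3c2 or Zfp949. Ptgds failed the filter. The members and lists were chosen with earlier results of these data known. The test was tried on simulated data.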

Additional observations from a re-analysis of the deposited data

Results flagged for a closer look

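Each value below is the gap of the farthest library to its nearest neighbour, as a share of the range of the 4 libraries of its group. It exceeded the 95% critical value of Dixon's test for 4 values in 24 of the 218 groups looked at. A chance rate of about 1 in 20 holds only for independent, normally distributed values. CPM need not be normal, and the muscle genes share FMRKO 5, so the 24 are only a description. FMRKO 5 was the high library for Neb (0.996), Ttn (0.993), Atp2a1 (0.999), Acta1 (0.988), Myh4 (1.0), Ckmt2 (0.995), Cox7a1 (0.902) and the skeletal muscle score (0.897), and the low one for the inflammatory mediator score (0.899). FMRKO 3 was the high library for Csn3 (1.0) and Ltf (0.984), and FMRKO 2 for Timp1 (0.874).

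Among the controls, library 2 was high for Lcn2 (0.852), Timp1 (0.894) and Spp1 (0.951). Library 1 was high for Tchh (0.993), Ucp1 (0.918) and Acta1 (0.908). Library 5 was high for Neb (0.848) and Atp2a1 (0.902). Library 4 was high for H6pd (0.906), Per1 (0.884) and Ltf (1.0, on 2 counts), and low for the immediate-early gene score (0.831).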

How the results depend on the processing

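The count of called genes on chow was 2, 71 with DESeq2, and 1 with the chow libraries alone, without the lymph node libraries FMRKO 1 and 3, and with the replicate block; leaving out 1 library each time gave 2 to 19. The 19 came without control 1 and held 17 lower genes; 3 genes were called without control 2 (Ppm1m added) and 3 without control 4 (Dnmt3l added), both named after their values were seen. Numbers 1, 2 and 5 occur in both groups, and the deviations of same-numbered libraries correlated at -0.28, 0.11 and -0.14. Pairs of unlike number ran from -0.36 to 0.34. These values cannot decide whether the numbers mark pairs, since neighbouring tissue in single libraries also enters them. The same number does not prove pairing either, so the block was only an alternative. With it, Zfp949 stayed called. The effect on chow differed from that on the high-fat diet in 0 genes, and 6 with DESeq2, and from that with corticosterone in 0, and 4 with DESeq2 (Ltf, Rpl9-ps7, Igfbp7 and Actn2) and 1 without the lymph node and muscle libraries (Cited2), named likewise; leaving out 1 library each time gave 0 for both. The 2317 genes that tracked neighbouring tissue were 1159 at an adjusted p under 0.01. Nr3c2 ran from -0.47 to -0.10 when 1 library was left out, and was 0.03 without FMRKO 1 and 3. The cause of these moves was not tested.

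Other log2 fold changes changed sign, all of them uncalled. Without FMRKO 1 and 3 they were Fkbp4 -0.01, Adipoq 0.18, Pparg 0.23, Tsc22d3 0.05, Cd22 -1.04, Cd79a -0.29, Ltf -2.27 and Epcam -4.00. Without FMRKO 5 they were Nr3c1 -0.04, Pparg 0.01, Zbtb16 0.13, Myh4 -5.19, Atp2a1 -0.88 and Ckmt2 -0.85. Without all 3 they were H6pd 0.11, Fkbp5 0.05, Adipoq 0.28, Pparg 0.51, Cd22 -1.03, Cd79a -0.06, Ltb -0.03, Ttn -1.03, Myh4 -4.36, Acta1 -2.44, Neb -0.27, Atp2a1 -0.76, Ltf -2.29, Epcam -4.02, Timd4 -0.06, Mgll 0.07, Cd36 0.13 and Ckmt2 -0.46. With the tissue scores as covariates they were H6pd 0.09, Adipoq 0.21, Pparg 0.39, Zbtb16 0.14, Cd22 -0.95, Cd79a -0.21, Ttn -0.18, Myh4 -2.46, Atp2a1 -0.26, Mgll 0.05 and Cd36 0.09. With the replicate block they were Fkbp4 -0.03, Fkbp5 0.01, Adipoq 0.01, Pparg 0.05, Tsc22d3 0.24 and Zbtb16 0.11. Pparg and Tsc22d3 were 0.00 with DESeq2, RLE scaling and no filter, 0.01 with the chow libraries alone and 0.02 among genes that tracked no score, where Zbtb16 was 0.02. Leaving out 1 library gave -0.09 to 0.10 for Nr3c1, -0.19 to 0.22 for Hsp90aa1, -0.08 to 0.17 for Hsp90ab1, -0.07 to 0.18 for Fkbp4, -0.43 to 0.19 for Fkbp5, -0.26 to 0.02 for Adipoq, -0.25 to 0.16 for Pparg, -0.93 to 2.32 for Ucp1, -0.16 to 0.34 for Tsc22d3, -0.22 to 0.23 for Zbtb16, -0.66 to 1.38 for Lcn2, -5.19 to 9.96 for Myh4, -0.88 to 7.62 for Atp2a1 and -0.85 to 4.79 for Ckmt2.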

Other observations

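Liver-type transcripts were present in some libraries of both genotypes. Alb, serum albumin, was at 334, 10.7, 326 and 15.8 CPM (untrimmed library totals) in controls 1, 2, 4 and 5 and at 8.93, 8.09, 104 and 1101 CPM in FMRKO 1, 2, 3 and 5. The summed level of 19 hepatocyte genes, listed after Alb had been seen, was 710, 24.3, 802 and 43.9 CPM in the same controls and 21.3, 14.9, 232 and 2823 CPM in FMRKO. The highest library was again FMRKO 5, and controls 1 and 4 stood above the other controls. Among the 16 libraries of the other conditions the sum ran from 28.4 to 2334 CPM. Several of the genes near Adipoq belong to this kind: Ahsg, the liver protein fetuin-A, was at 35.3, 0.814, 41.4 and 1.497 CPM in controls and at 0, 0.0779, 10.1 and 171 CPM in FMRKO, so its log2 fold change of 1.19 ± 1.67 rests on FMRKO 5.

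Cell-cycle genes followed neither genotype nor a single tissue. The 16 mitotic genes took 0.0227% of the counts in control 2, 0.0147% in FMRKO 1 and 0.00989% in FMRKO 3, and 0.00431% to 0.00709% in the other 5 libraries. Control 2 was also the library with the most macrophage transcripts. The median log2 fold change of the list was -0.37 with all 8 libraries, -0.82 without FMRKO 1 and 3, and 0.45 without control 2.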
